A study of Mus musculus with 3 samples.

Results

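Monocyte and macrophage genes were examined in LT-HSCs, long-term haematopoietic stem cells, which sustain blood formation for life. The 35 genes were chosen by name as markers of monocytes and of marrow macrophages, leaving out chemokine receptors and dendritic cell markers, and all 35 were measured among 23185 named genes. The LT-HSCs came from bone marrow of female C57Bl/6 mice aged 8 to 10 weeks. One group had received 8 Gy of total body irradiation (TBI) at CDR, read here as conventional dose rate, one had received 8 Gy as FLASH, which is delivery at an ultra-high dose rate, and one was non-irradiated. Per the labels, 10000 LT-HSCs were isolated 15 days after TBI, and each group had 1 Affymetrix array. The sources used here give neither the sorting gate nor the number of mice behind each array. With 1 array per group no test was possible, so "higher" and "lower" describe these arrays and no difference has a replicate check.

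Monocytes arise in the marrow from stem and progenitor cells through the transcription factors PU.1, C/EBP alpha and IRF8, leave for the blood, and can become macrophages in tissues. Resident marrow macrophages clear dying cells and expelled erythroblast nuclei, recycle iron from old red cells and anchor developing erythroblasts. Many of the genes examined are not restricted to mature cells: PU.1 targets can be transcribed at a low level in stem and progenitor cells before any lineage is chosen.

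Levels are the authors' processed log2 values, and a difference is the difference of 2 log2 levels. A gene was taken as detected on an array when it read above the 95th percentile of 1364 chemosensory receptor genes (olfactory, vomeronasal, trace amine) on that array, which was 4.16 with CDR, 4.22 with FLASH and 4.15 without irradiation. These receptor genes, taken as unexpressed, had differences with an SD of 0.21 for CDR minus non-irradiated, 0.21 for FLASH minus non-irradiated and 0.18 for FLASH minus CDR. Those SDs give a scale for the differences below and are not replicate errors. Of the 35 genes, 32 were detected in at least 1 array. The lectin receptor gene Clec4n, the Fc receptor gene Fcgr4 and the scavenger receptor gene Msr1 were under the detection level on all 3 arrays, at 2.92, 3.48 to 3.51, and 2.77. Exact ties were common in the deposited values: 10 of the 35 genes held the same value on all 3 arrays, against 39.8% of all named genes.

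The 10 LT-HSC markers analysed here, among them Procr, Slamf1, Kit, Hlf and Mecom, were above the detection level on every array. Fgd5 read 4.35 to 4.64 and Hoxb5 4.56 to 4.75, close to the detection levels. The summed linear level of the 10 markers was 1756 with CDR and 1740 with FLASH, against 3470 on the non-irradiated array. Of 9 T and NK cell markers, 4 were above the detection level with CDR, 4 with FLASH and 5 without irradiation. Cd3d, Cd3e, Cd3g and Gzma were under it on all 3 arrays, whereas Cd8a, Ncr1, Klrb1c and Nkg7 were above it on all 3. Of these, Cd8a at 4.25 to 4.37 and Ncr1 at 4.43 to 4.80 were close to the detection levels. The arrays thus carried the markers of the labelled cell type, together with transcripts of other lineages. Among the latter, 12 granulocyte markers had a summed linear level of 18411 with CDR, 16916 with FLASH and 15507 without irradiation. Sums over different genes do not give shares of cells. In a bulk sample, fewer cells of a type and less RNA per cell cannot be told apart.

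As a list, the monocyte and macrophage genes stood close to the non-irradiated array, and a few members differed by a large amount. With CDR 10 of 32 detected members were higher, 12 lower and 10 equal to the non-irradiated array, with a median difference of 0.0, while of all detected genes 34.7% were higher and 30.4% lower. With FLASH 6 members were higher, 16 lower and 10 equal, with a median of -0.038, while of all detected genes 33.4% were higher and 32.5% lower. The median over all detected genes was 0.0 in both comparisons. At least 2-fold differences were held by 2 members on both irradiated arrays: Emilin2, which was higher, and Wfdc17, which was lower. The shares of all 13462 genes detected in the CDR comparison that passed this fold were 0.765% upward and 2.35% downward, and those of the 13456 of the FLASH comparison 1.15% and 1.73%. A single member in each direction is too few to set the list apart from these shares. Wfdc17 also passed 3-fold on both arrays, where 0.943% of all detected genes lay with CDR and 0.55% with FLASH, whereas Emilin2 did not, where 0.149% and 0.438% lay. At 1.5-fold 2 members were higher with CDR (Emilin2, Fcgr3), against 3.19% of all detected genes, and 3 lower (Wfdc17, Maf, Mrc1), against 5.38%. With FLASH 2 were higher (Emilin2, Lgals3), against 3.54%, and 3 lower (Wfdc17, Clec7a, Ly6c2), against 5.23%. Some of these calls lay close to the threshold. Under median centring Mrc1 with CDR and Ly6c2 with FLASH fell under 1.5-fold, at -0.57 each. Lgals3 with CDR then rose past it, at 0.61. The irradiated arrays were set against the same non-irradiated array, so their differences are not independent of each other.

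**Figure D1:**
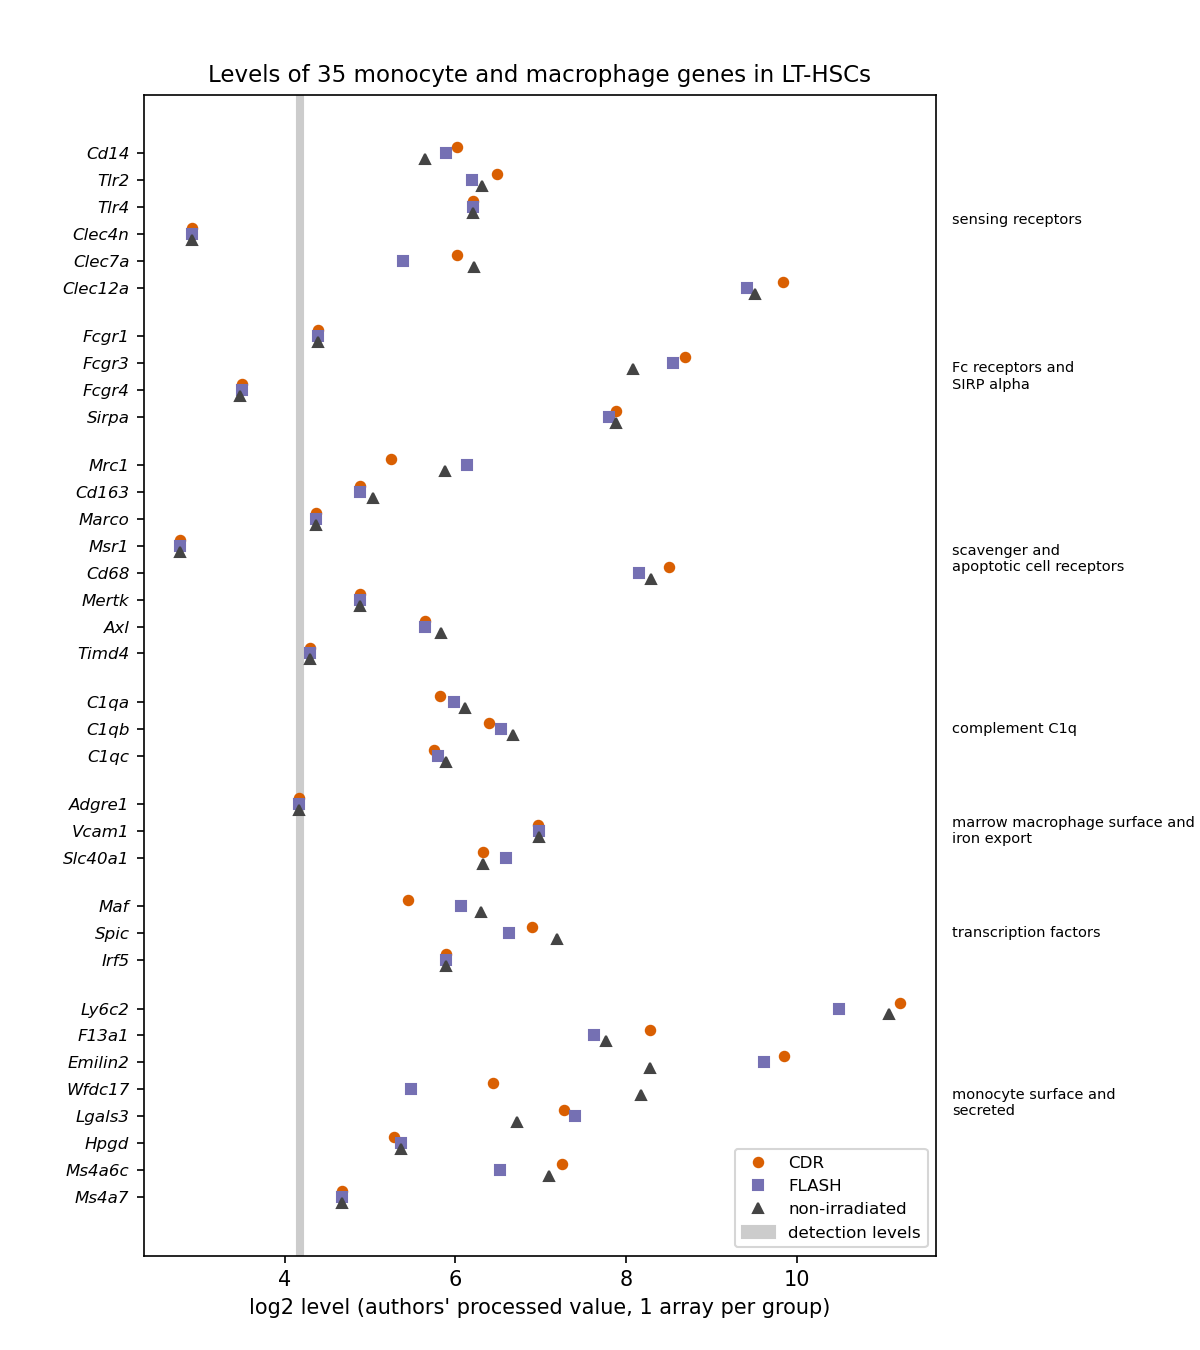
Log2 level (authors' processed value, x axis) of each of the 35 genes on the CDR array (circles), the FLASH array (squares) and the non-irradiated array (triangles), grouped by role, with the span of the 3 detection levels in grey. Wfdc17 and Emilin2 have the widest spread, and 3 genes lie left of the grey band on every array.

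The genes of secreted and surface proteins typical of monocytes held the largest differences. Emilin2 encodes an extracellular matrix glycoprotein of the elastin microfibril interface. It read 9.85 with CDR and 9.62 with FLASH, against 8.28 on the non-irradiated array. Both irradiated arrays were thus well above the non-irradiated one and close to each other: the difference was 1.57 (2.97-fold) for CDR and 1.34 (2.53-fold) for FLASH. On the CDR array this was the 23rd highest of the 13462 differences, and on the FLASH array the 86th highest of 13456.

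Wfdc17 encodes a small secreted protein with a whey acidic protein domain, known as a product of activated macrophages and microglia in mice. Its level was 6.44 with CDR and 5.48 with FLASH, against 8.18 on the non-irradiated array. It was lowest on the FLASH array, with CDR in between. The difference was -1.74 (3.33-fold) for CDR, the 108th lowest of all detected genes, and -2.69 (6.47-fold) for FLASH, the 17th lowest. Between the irradiated arrays Wfdc17 stood at -0.96 for FLASH minus CDR (1.94-fold).

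Granulocyte markers also differed between the same arrays, in both directions. Of 10 detected in each comparison with the non-irradiated array, 3 were at least 2-fold lower and 1 at least 2-fold higher with CDR. The shares of all detected genes were 2.35% and 0.765%. With FLASH the counts were likewise 3 lower and 1 higher, against 1.73% and 1.15% of all detected genes. The neutrophil calgranulin gene S100a9 read 7.87 with CDR and 8.81 with FLASH, against 10.12 without irradiation. The neutrophil granule genes Camp and Ngp were lower too. Camp read 3.86 with CDR, under the detection level, and 4.48 with FLASH, against 5.90 without irradiation, and Ngp 4.81 with CDR and 4.79 with FLASH, against 6.47 without irradiation. Lcn2, an iron-siderophore-binding protein of neutrophil granules, read 9.15 with CDR and 8.40 with FLASH, against 6.97 without irradiation. Elane, Mpo, Prtn3 and Ctsg, the brightest of the list, were higher on both irradiated arrays by less than 1.5-fold. S100a8 stood at -0.20 with CDR and -0.026 with FLASH, and Mmp8 was equal. The summed linear level of the list, given above, was higher on both irradiated arrays than on the non-irradiated one. The part of granulocyte transcripts in the Emilin2 and Wfdc17 values was not tested.

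Ly6c2, F13a1 and Ms4a6c, which mark the classical inflammatory monocyte of the mouse, shared another order of the arrays: highest on CDR, lowest on FLASH. Ly6c2 encodes a surface protein of the Ly6 family and has a near-identical copy, Ly6c1, so that its value is uncertain as a measure of 1 gene. It read 11.21 on CDR and 10.49 on FLASH, against 11.08 on non-irradiated. F13a1, the A subunit of coagulation factor XIII, read 8.28 on CDR and 7.63 on FLASH, against 7.77 on non-irradiated. Ms4a6c, a membrane protein of the MS4A family, read 7.25 on CDR and 6.52 on FLASH, against 7.09 on non-irradiated. The 3 genes were above the non-irradiated array on CDR by 0.13, 0.52 and 0.16, and their FLASH differences were -0.59, -0.14 and -0.57. For each gene 1 of these differences was smaller than the SD of 0.21 of the unexpressed genes. The order was not particular to these 3 genes, as Clec12a, Tlr2 and Cd68 had it too. That order alone places the irradiated arrays further apart than CDR and the non-irradiated array, so the larger distance adds no separate result.

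Lgals3, the beta-galactoside-binding galectin-3 known as Mac-2, read 7.27 on CDR and 7.40 on FLASH, against 6.72 on non-irradiated, a difference of 0.55 and 0.68. It was the member besides Emilin2 that stood at least 1.5-fold above the non-irradiated array on FLASH. Hpgd, the enzyme that inactivates prostaglandin E2, read 5.28 on CDR and 5.37 on both FLASH and non-irradiated. Ms4a7, an MS4A gene of resident macrophages, held 4.68 on all 3 arrays.

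Promoter windows of members were examined for the core of the PU.1 motif, because PU.1 is the main transcription factor of this lineage. RefSeq windows of 300 bases in GRCm38.p6, reaching from 250 bases before to 50 bases after a start site, were available for 25 of the 35 members, with 31 windows in all. The motif GAGGAA was present on either strand in 20 of 31 member windows (64.5%), against 28.3% of 32851 windows of all genes. The longer GAGGAAGT, which contains GAGGAA and is counted in it, was in 5 of 31 (16.1%), against 3.2% of all windows. A C/EBP motif, TTGCNNAA, was in 12.9% of member windows and 10.8% of all, an interferon-stimulated response element core in 6.45% and 3.44%, and a MAF motif, TGCTGAC, in 9.68% and 4.67%, each on either strand. The counts are of windows and not of genes. Windows of Clec7a, of Fcgr3 and of Ly6c2 overlap, so the same match was counted again in an overlapping window. The windows of all genes were counted in the same way. These matches are a description of the letters in the windows and not of binding. The windows below belong to both genes past 2-fold (Emilin2, Wfdc17), to F13a1 and Clec7a, which were lower on FLASH than on CDR, and to Mrc1, which was higher. Capitals mark matches to any of the 5 motifs on either strand.
Emilin2, chr17:71311507-71311806, minus strand: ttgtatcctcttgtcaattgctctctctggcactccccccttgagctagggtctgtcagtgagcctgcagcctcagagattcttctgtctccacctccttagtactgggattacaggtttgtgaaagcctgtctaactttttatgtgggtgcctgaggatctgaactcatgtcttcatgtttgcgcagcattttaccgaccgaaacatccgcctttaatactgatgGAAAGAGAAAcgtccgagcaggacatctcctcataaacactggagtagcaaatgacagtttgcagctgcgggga
Wfdc17, chr11:83703806-83704105, plus strand: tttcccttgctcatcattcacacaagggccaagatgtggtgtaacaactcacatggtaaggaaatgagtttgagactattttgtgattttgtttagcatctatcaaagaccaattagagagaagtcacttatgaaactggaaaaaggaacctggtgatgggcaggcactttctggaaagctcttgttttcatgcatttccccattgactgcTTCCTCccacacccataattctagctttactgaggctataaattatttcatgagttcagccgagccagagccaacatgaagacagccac
F13a1, chr13:37049164-37049463, minus strand: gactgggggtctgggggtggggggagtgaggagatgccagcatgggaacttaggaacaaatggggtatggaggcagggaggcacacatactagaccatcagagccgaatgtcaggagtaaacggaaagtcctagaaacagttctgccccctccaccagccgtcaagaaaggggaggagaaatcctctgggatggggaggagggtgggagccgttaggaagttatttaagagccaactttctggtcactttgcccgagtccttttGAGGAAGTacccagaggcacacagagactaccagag
Clec7a, chr6:129472730-129473029, minus strand: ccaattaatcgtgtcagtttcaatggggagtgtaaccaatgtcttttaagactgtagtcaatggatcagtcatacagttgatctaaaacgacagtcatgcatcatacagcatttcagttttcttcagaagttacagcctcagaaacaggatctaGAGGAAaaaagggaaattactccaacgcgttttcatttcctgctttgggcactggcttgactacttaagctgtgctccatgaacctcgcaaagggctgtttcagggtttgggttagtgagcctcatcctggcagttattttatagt
Mrc1, chr2:14229164-14229463, plus strand: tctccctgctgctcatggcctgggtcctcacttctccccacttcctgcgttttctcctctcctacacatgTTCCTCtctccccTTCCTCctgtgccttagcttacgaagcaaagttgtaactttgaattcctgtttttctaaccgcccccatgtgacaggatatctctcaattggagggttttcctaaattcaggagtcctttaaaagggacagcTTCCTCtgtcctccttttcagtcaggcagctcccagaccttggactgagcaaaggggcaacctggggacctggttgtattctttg

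The window of Emilin2 shown holds the interferon-stimulated response element core and no GAGGAA, and its other window holds none of the 5 motifs. That of Wfdc17 holds GAGGAA once, on the reverse strand, where it reads TTCCTC. The F13a1 window holds the longer motif just downstream of the start site. The Clec7a window holds GAGGAA once, and that of Mrc1 holds it 3 times, each on the reverse strand. The matches thus occurred in windows of genes that differed in opposite directions between FLASH and CDR. The windows of Ly6c2, not shown, also hold GAGGAAGT, and the Ms4a6c window holds none of the 5 motifs.

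Among the receptors that sense microbes and damage, differences from the non-irradiated array stayed within 2-fold. Clec7a, the beta-glucan receptor dectin-1, read 6.02 on CDR and 5.39 on FLASH, against 6.22 on non-irradiated. Its FLASH difference of -0.83 (1.77-fold) was larger than its CDR difference of -0.20, with FLASH lowest of the 3 arrays. Clec12a, an inhibitory lectin receptor that recognises uric acid crystals, read 9.84 on CDR and 9.42 on FLASH, against 9.51 on non-irradiated. It was thus highest on CDR, as were Cd14 and Tlr2. Cd14, the lipopolysaccharide co-receptor, read 6.02 on CDR and 5.89 on FLASH, against 5.65 on non-irradiated, so both irradiated arrays were above the non-irradiated one. Tlr2, the receptor for bacterial lipoproteins, read 6.49 on CDR and 6.20 on FLASH, against 6.31 on non-irradiated. Tlr4, the lipopolysaccharide receptor, held 6.21 on all 3 arrays.

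The receptors for antibody Fc parts and the signal regulatory protein differed little, apart from Fcgr3. Fcgr3, the low-affinity activating receptor CD16, read 8.70 on CDR and 8.55 on FLASH, against 8.09 on non-irradiated, a difference of 0.61 (1.53-fold) and 0.46. Both irradiated arrays were higher than the non-irradiated one. Its outer part is closely similar to that of the inhibitory receptor Fcgr2b, which read 7.34 on CDR and 6.89 on FLASH, against 5.96 on non-irradiated, so the probe sets may share signal. The high-affinity receptor gene Fcgr1, CD64, held 4.39 on all arrays, just above the detection levels. Sirpa, the inhibitory receptor for the CD47 signal on healthy cells, read 7.88 on CDR and 7.80 on FLASH, against 7.88 on non-irradiated.

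Of 7 detected scavenger and apoptotic cell receptors, 3 were equal on all arrays, and Mrc1 had the largest differences. Mrc1, the mannose receptor CD206 of resident macrophages and of sinusoidal endothelium, read 5.25 on CDR and 6.14 on FLASH, against 5.87 on non-irradiated. The CDR array was lower than the non-irradiated one by a difference of -0.63, and the FLASH array higher by 0.26. Cd68, a lysosomal glycoprotein of phagocytes, had the reverse order, at 8.51 on CDR and 8.15 on FLASH, against 8.29 on non-irradiated. Cd163, the haemoglobin scavenger receptor, read 4.89 on both irradiated arrays and 5.04 on non-irradiated. Axl, a receptor kinase for apoptotic cells, read 5.64 on both irradiated arrays and 5.83 on non-irradiated. These 2 genes held the same value on CDR and FLASH, and both were slightly under the non-irradiated level. The apoptotic cell receptor genes Mertk and Timd4 and the scavenger receptor gene Marco held 4.89, 4.29 and 4.37 on every array.

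The C1q genes, which encode the 3 chains of the first component of the classical complement pathway and neighbour each other on the same chromosome, kept 1 order throughout. C1qa read 5.82 on CDR and 5.98 on FLASH, against 6.12 on non-irradiated. C1qb read 6.39 on CDR and 6.54 on FLASH, against 6.67 on non-irradiated, and C1qc 5.75 on CDR and 5.80 on FLASH, against 5.89 on non-irradiated. All 3 were lowest on CDR and highest on the non-irradiated array, by small amounts: their differences ran from -0.29 to -0.14 on CDR and from -0.13 to -0.088 on FLASH. None reached 1.5-fold.

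Genes of the erythroblast-supporting marrow macrophage differed little. Adgre1, a surface antigen of mouse macrophages, held 4.17 on every array, which lies between the detection levels. Vcam1, an adhesion molecule of these macrophages, of stroma and of some stem cells, read 6.97 on CDR and 6.98 on both FLASH and non-irradiated. Slc40a1, the iron exporter ferroportin, read 6.32 on CDR and 6.59 on FLASH, against 6.32 on non-irradiated. Its FLASH difference was 0.27. Erythroid markers, by contrast, had a median difference of 1.19 on CDR and 1.56 on FLASH over 6 measured genes.

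Among the transcription factors, Maf and Spic were lower on both irradiated arrays. Maf, a factor of mature macrophages that is also used by plasma cells and T cells, read 5.45 on CDR and 6.07 on FLASH, against 6.30 on non-irradiated, a difference of -0.85 (1.81-fold) and -0.23. Spic, the factor of iron-recycling macrophages and a relative of PU.1, read 6.90 on CDR and 6.63 on FLASH, against 7.19 on non-irradiated, a difference of -0.29 and -0.56. Maf was thus lowest on CDR and Spic lowest on FLASH. Irf5, an interferon regulatory factor of inflammatory macrophages, held 5.89 on all 3 arrays. B cell and plasma cell markers had a summed linear level of 2187 on CDR and 4366 on FLASH, against 5304 on non-irradiated, and their part in the Maf values was not tested.

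**Figure D2:**
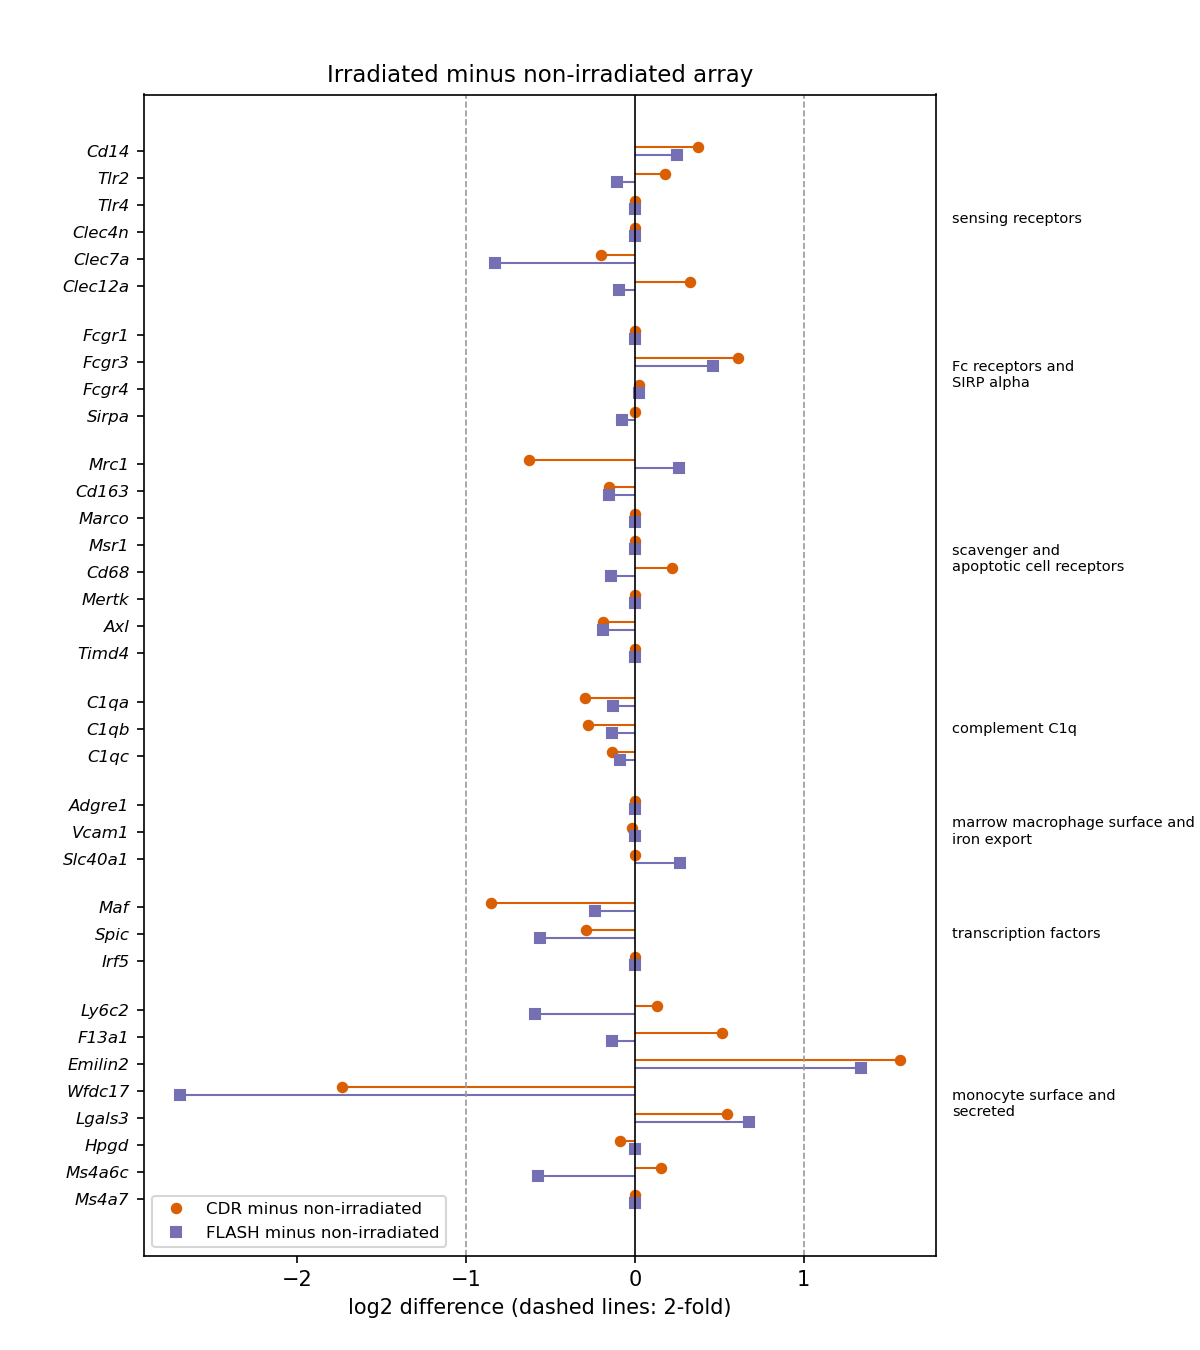
Log2 difference (x axis) of each of the 35 genes on the CDR array (circles) and the FLASH array (squares) against the same non-irradiated array, grouped by role, with dashed lines at 2-fold. Emilin2 lies right of 2-fold for both arrays, at 1.57 and 1.34, and Wfdc17 left of it, at -1.74 and -2.69.

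The comparison of FLASH with CDR set the dose rates side by side at 8 Gy. Of 32 detected members 9 were higher on FLASH, 13 lower and 10 equal, with a median of 0.0, as for all 13355 detected genes, of which 25.3% were higher and 31.5% lower. No member reached 2-fold, which 0.839% of all detected genes passed upward and 0.142% downward. At 1.5-fold, 5 of 32 members were lower on FLASH, against 0.771% of all detected genes, and 2 were higher, against 1.83%. The lower genes were Wfdc17 (-0.96), Ms4a6c (-0.73), Ly6c2 (-0.72), F13a1 (-0.65) and Clec7a (-0.63). They were among the 90 lowest of the 13355 differences, with Wfdc17 the 23rd lowest. The higher genes were Mrc1 (0.89) and Maf (0.62), the 142nd and 229th highest. With an offset of 32 added to linear values before the log, which shrinks the differences of dim genes, 2 members (Ly6c2 and Wfdc17) stayed at least 1.5-fold lower, against 0.24% of all detected genes, and 0 stayed higher, against 0.936%. With it Clec7a stood at -0.39, Wfdc17 at -0.63, Mrc1 at 0.55 and Maf at 0.39 for FLASH minus CDR. Against the non-irradiated array Mrc1 then stood at -0.37 and Maf at -0.55 with CDR, and Clec7a at -0.52 with FLASH.

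By role, the counts between FLASH and CDR were small, beside 25.3% of all detected genes higher and 31.5% lower. Of 8 monocyte surface and secreted genes 5 were lower on FLASH and 2 higher, with a median of -0.44. Of 5 detected sensing receptors 4 were lower and 1 equal, with a median of -0.28, and of 3 detected Fc receptor and SIRP alpha genes 2 were lower and 1 equal. Scavenger and apoptotic cell receptors had 1 gene higher, 1 lower and 5 equal, and transcription factors 1 higher, 1 lower and 1 equal. The 3 C1q genes were higher on FLASH by 0.05 to 0.16, each less than the SD of 0.18 of the unexpressed genes. Of the 3 marrow macrophage genes Slc40a1 was higher by 0.27, Adgre1 was equal and Vcam1 stood at 0.02, with its sign turned under median centring. The summed linear level of the monocyte surface and secreted genes was 2797 on FLASH and 4063 on CDR, and that of the C1q genes 212 on FLASH and 195 on CDR. Ly6c2, at 11.21 on CDR and 10.49 on FLASH, weighed most in the monocyte sum, and its value is uncertain as a measure of 1 gene. No test of the difference between roles was possible.

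**Figure D3:**
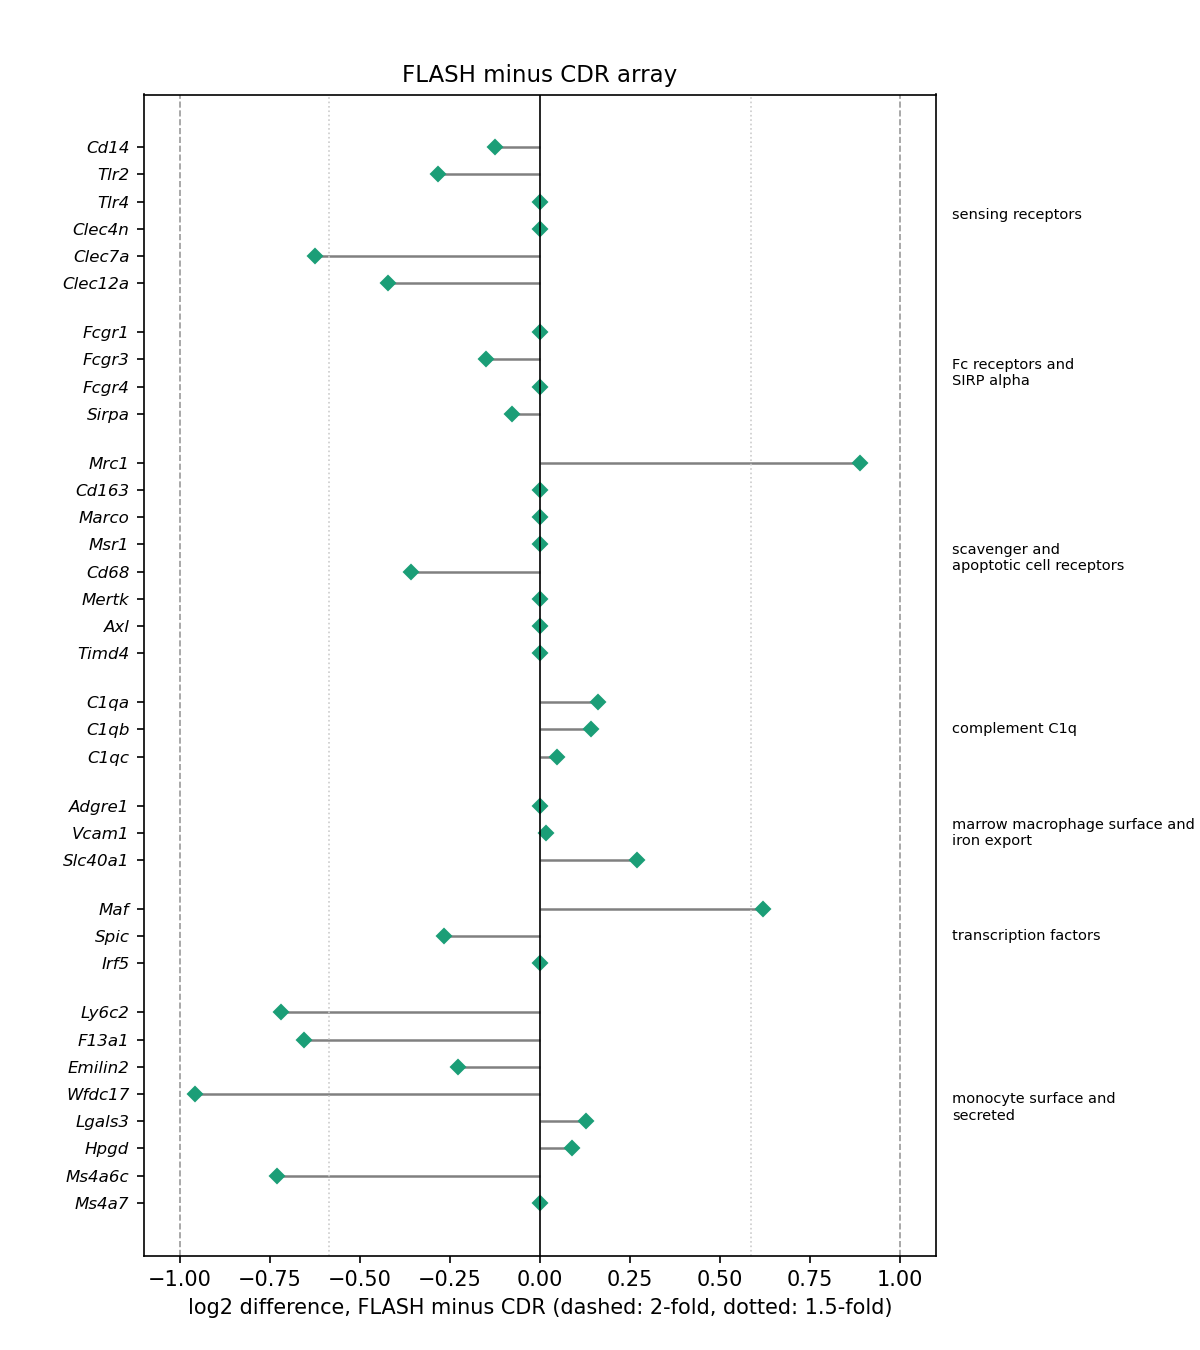
Log2 difference of each of the 35 genes between the FLASH and the CDR array (x axis, FLASH minus CDR), grouped by role, with dashed lines at 2-fold and dotted lines at 1.5-fold. No gene passes 2-fold, 5 lie left of the 1.5-fold line and Mrc1 and Maf lie right of it.

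Markers of other cell types moved between the same arrays. Of the 9 endothelial and stromal markers measured, 7 were detected, Lepr and Col1a1 were under the detection level on all arrays, and the list had a median of 0.58 for FLASH minus CDR. Its summed linear level was 724 on FLASH and 465 on CDR, against 537 on non-irradiated. This sum had the same order as Mrc1, but of the detected genes only Kdr and Sparc had it. Cdh5 and Plvap were lowest on the non-irradiated array, Emcn and Cxcl12 were highest on it, and Col1a2 was equal on all arrays. Of 11 dendritic cell markers, 9 were detected in this comparison, 8 were higher on FLASH and 1 was equal, with a median of 0.92. Their summed linear level was 4214 on FLASH and 1970 on CDR, against 1405 on non-irradiated, while Siglech and Cd209a were under the detection level throughout. The granulocyte markers had a median of -0.048 for FLASH minus CDR, with 3 of 10 higher and 6 lower, and single genes of the list differed by much more. The part of these cell types in the values of the monocyte and macrophage genes was not tested.

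Genes that act with the members were taken from 7 lists of 59 genes, of which 53 were analysed here. In the CDR comparison 22 of 48 detected genes were higher and 17 lower than on the non-irradiated array, with 1 past 2-fold upward and 0 downward. Of all detected genes 34.7% were higher and 30.4% lower in that comparison, with 0.765% and 2.35% past 2-fold. In the FLASH comparison 15 of 49 were higher and 24 lower, with 0 past 2-fold in either direction. Of all detected genes 33.4% were higher and 32.5% lower there, with 1.15% and 1.73% past 2-fold. Between FLASH and CDR 11 of 49 were higher and 28 lower, with a median of -0.027 and 1 at least 2-fold lower, while of all detected genes 25.3% were higher and 31.5% lower, with 0.142% at least 2-fold lower. The gene past 2-fold on CDR was Fcgr2b at 1.38, and that between FLASH and CDR was Csf1r.

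Csf1r encodes the receptor for macrophage colony-stimulating factor, on which monocytes and macrophages depend. It read 6.59 on CDR and 5.58 on FLASH, against 6.36 on non-irradiated, and stood at -1.01 for FLASH minus CDR (2.02-fold). With the offset its difference was -0.69, under 2-fold. Its order of arrays, highest on CDR and lowest on FLASH, was that of Ly6c2, F13a1, Ms4a6c, Clec12a, Tlr2 and Cd68. Of 7 growth factor receptor genes 6 were lower on FLASH than on CDR and 1 equal, while of all detected genes 31.5% were lower. The median of this list was -0.12, less than the SD of 0.18 of the unexpressed genes. Csf2rb, the common beta chain of the receptors for granulocyte-macrophage colony-stimulating factor and interleukins, has a near-identical copy, Csf2rb2, so that its signal is uncertain. It read 8.65 on CDR and 8.43 on FLASH, against 7.87 on non-irradiated. Of 9 lineage factors detected in the CDR comparison 3 were higher, 3 lower and 3 equal, and of 10 in the FLASH comparison 3 were higher, 5 lower and 2 equal. Spi1, which encodes PU.1, read 10.64 on CDR and 10.49 on FLASH, against 10.54 on non-irradiated, and Irf8 held 7.83 on all arrays. Cebpa, which encodes C/EBP alpha, read 8.15 on CDR and 7.91 on FLASH, against 7.72 on non-irradiated, and Klf4, a factor of patrolling monocytes, 6.13 on CDR and 6.47 on FLASH, against 6.72 on non-irradiated. Klf4 was the 1 lineage factor at least 1.5-fold lower on CDR, at -0.59, and under median centring it stood at -0.53, under 1.5-fold. Gfi1, a repressor that favours granulocytes over monocytes, read 6.91 on CDR and 6.60 on FLASH, against 6.35 on non-irradiated. Runx1, a factor required for the emergence of blood stem cells, read 9.11 on CDR and 9.07 on FLASH, against 9.52 on non-irradiated, so that it was lower on both irradiated arrays. Ifngr1, a chain of the interferon gamma receptor, had differences of 0.45 with CDR and 0.23 with FLASH.

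Of the signalling and effector genes, those of the phagocyte oxidase, the enzyme that makes superoxide in phagosomes, had a median difference of 0.23 with CDR and 0.15 with FLASH. The FLASH median was less than the SD of 0.21 of the unexpressed genes. Cybb, the membrane subunit gp91phox of the oxidase, read 7.07 on CDR and 6.68 on FLASH, against 6.53 on non-irradiated. Ncf1, its cytosolic subunit p47phox, read 7.81 on CDR and 7.47 on FLASH, against 7.21 on non-irradiated. Of 5 oxidase genes 3 were higher and 2, Cyba and Rac2, slightly lower on each irradiated array. Of all detected genes 34.7% were higher and 30.4% lower with CDR, and 33.4% and 32.5% with FLASH. The adaptor genes Tyrobp and Fcer1g, which couple Fc and lectin receptors to the kinase Syk, had FLASH minus CDR differences of -0.16 and -0.39, and Syk itself was below the non-irradiated level by a difference of -0.47 with CDR and -0.41 with FLASH. Card9, which relays dectin-1 signals, read 7.07 on CDR and 6.74 on FLASH, against 6.18 on non-irradiated, whereas its upstream receptor gene Clec7a was below the non-irradiated level on both. With CDR the Clec7a difference of -0.20 was no larger than the SD of 0.21 of the unexpressed genes. Ticam2, an adaptor of Tlr4, read 6.64 on CDR and 6.24 on FLASH, against 6.97 on non-irradiated. Mpeg1, the pore-forming perforin-2 of phagocytes and dendritic cells, was the 1 gene higher on FLASH than on CDR among 6 detected phagosome and lysosome genes, at 6.71 on CDR and 7.40 on FLASH, against 6.48 on non-irradiated. Hmox1, which degrades haem, read 7.99 on CDR and 8.16 on FLASH, against 8.87 on non-irradiated, while Hp, the haemoglobin-binding haptoglobin, read 9.58 on CDR and 9.29 on FLASH, against 8.77 on non-irradiated. Blvrb, the gene of biliverdin reductase B, read 9.50 on CDR and 9.76 on FLASH, against 8.94 on non-irradiated. Haem and iron genes thus held differences in both directions on both irradiated arrays.

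**Figure D4:**
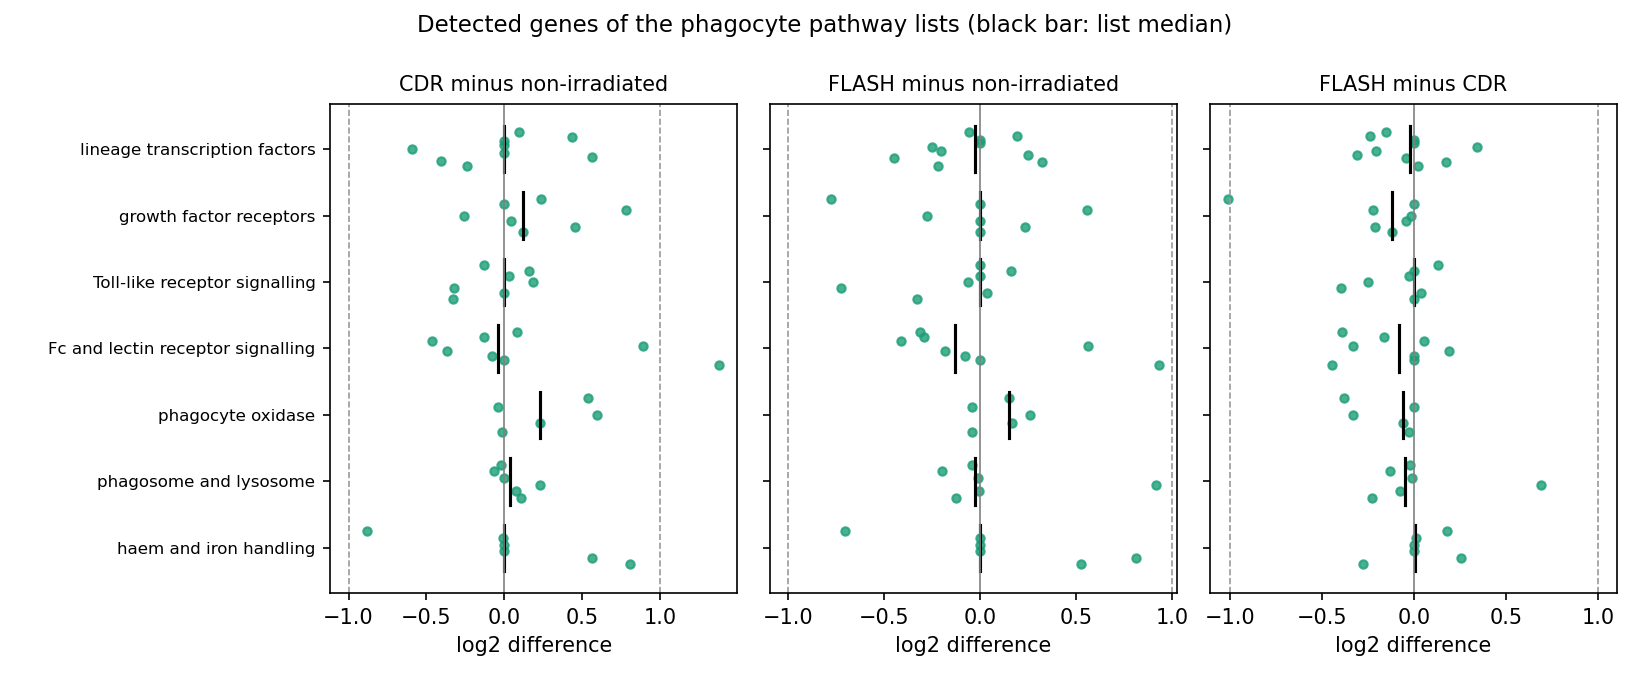
Log2 difference (x axis) of the detected genes of 7 phagocyte pathway lists (rows) in the 3 comparisons (panels), each point 1 gene, black bars the list medians and dashed lines 2-fold. Fcgr2b lies past 2-fold on CDR against non-irradiated and Csf1r past 2-fold on FLASH against CDR.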

How the data were processed

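The deposited table holds the authors' processed log2 level of 25206 probe sets on 3 arrays. The log2 scale was read from the range of values. Partek is named, without a version, in the submitters' processing notes, and how values were corrected, summarised and normalised is not given in the sources used here. These steps can set exact ties between arrays and the size of differences of dim genes. The platform annotation named 23185 probe sets with 1 gene each and 2021 with none. Members were matched by symbol. The members and gene lists were chosen with earlier results of these data known, so patterns among them are not independent support. Genes that could be named were the 35 members, the 2 largest differences per direction of each pathway list, a fixed set of pathway genes and the cell type markers; the smaller of the pathway differences are not printed. Some listed genes were not analysed here.

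Values were used as deposited, with no test, since each group had 1 array, and this small number limits the precision. A gene entered a comparison when the brighter array (either array, for ties) was above its detection level. The calling step was tested on simulated data. Alternatives were 3 other scalings, by median, by quantiles and by cyclic loess (limma 3.58.1, R 4.3.3), an offset of 32, other detection rules and fold thresholds of 1.5 and 3. Python 3.11.15, pandas 2.3.3, numpy 2.4.6 and matplotlib 3.10.9 were used.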

Additional observations from a re-analysis of the deposited data

Results flagged for a closer look

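Mrc1 differed from the non-irradiated array in opposite directions on the irradiated arrays, at -0.63 on CDR and 0.26 on FLASH. It was the only one of the 32 detected members with opposite signs where both differences were larger than the SD of the receptor genes taken as unexpressed (0.21 in each comparison). The comparisons share the non-irradiated array, each group had 1 array, and the difference was not tested.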

How the results depend on the processing

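The counts of members at least 2-fold higher or lower were the same under median centring, quantile normalisation, cyclic loess, the offset, either detection rule and raised dim values. They moved with the threshold itself. At 1.5-fold the counts were 2 higher and 3 lower for CDR against non-irradiated, 2 higher and 3 lower for FLASH against non-irradiated, and 2 higher and 5 lower for FLASH against CDR. Against the non-irradiated array, whether Mrc1 and Lgals3 with CDR and Ly6c2 with FLASH passed 1.5-fold depended on the scaling. At 3-fold, 0 members were higher on either irradiated array against the non-irradiated one. The 1.5-fold counts between FLASH and CDR, whose alternatives were added after seeing the data, were the same under the 3 scalings and the stricter detection level, and were 0 higher and 2 lower with the offset. Member medians moved by less than the SD of the unexpressed genes under every alternative run. For FLASH against CDR the mean over members was -0.10 where the median was 0.0. Of the single-gene values, 756 moved by less than that SD and 16 by more, all 16 with the offset, and no called gene reversed. Among the members that were not tied, Vcam1 alone turned sign under a scaling. Tied members were left out of that check. Median centring gave a tied member such as Tlr4 a difference of 0.057 with CDR and 0.025 with FLASH against non-irradiated, and -0.033 for FLASH minus CDR. The counts of higher, lower and equal members thus depend on the scaling. No paired analysis was possible because each group had 1 array, and for the same reason no array could be left out. Genes near the detection levels, such as Adgre1, Timd4, Marco and Fcgr1, have little signal over background, so that a difference could be missed.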
